A study of Mus musculus with 2 samples.

Results

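The genes described here are the 10 subunits that are exchanged when the BAF chromatin remodelling complex of neural progenitors becomes that of neurons, chosen by name from the 32285 genes of the count tables. They are Actl6a and Actl6b (BAF53a and BAF53b), Ss18 and Ss18l1 (the latter also called CREST), Phf10, Dpf1, Dpf2 and Dpf3 (BAF45a, b, d and c), and the ATPases Smarca4 and Smarca2 (BRG1 and BRM). They were followed in dissociated dorsal telencephalon of E14.5 mouse embryos, profiled by droplet single-cell RNA sequencing of 3′ transcript ends. Both libraries form 1 group: wild-type (WT) embryos of a line called EomesDot in the labels, without treatment, named replicate 2 and replicate 4 from their titles. The labels do not describe the EomesDot allele, the sources used here do not give the number of embryos per library, and the study's methods name C57BL/6J mice.

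BAF (mammalian SWI/SNF) complexes use the energy of ATP to slide or evict nucleosomes. Each complex holds 1 ATPase, either Smarca4 or Smarca2, and a set of accessory subunits encoded by gene families, of which 1 member of each is built in at a time. Dividing neural progenitors build Actl6a, Ss18 and Phf10 or Dpf2 into the complex, and after mitotic exit neurons replace them with Actl6b, Ss18l1 and Dpf1 or Dpf3. The repressor Rest is known to hold down many neuronal genes outside neurons, and miR-9-3p (miR-9*) and miR-124 are known to target the Actl6a transcript in neurons. Because 3′ counts do not tell what is built into a complex, the values below are transcript levels only.

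After filters on genes detected, mitochondrial counts and doublets, 3122 of 4301 barcodes were retained, 1199 in replicate 2 and 1923 in replicate 4, with median totals of 30810 and 22826 UMIs (unique molecular identifiers, which count molecules). The libraries shared 3 barcodes. Cells were clustered without the 10 genes or any other listed chromatin gene, and clusters were called "-like" only from fixed markers. The radial glial cell (RGC)-like class had 228 and 362 cells, the intermediate progenitor cell (IPC)-like class 152 and 231, the excitatory neuron-like class 553 and 856 and the MGE (medial ganglionic eminence) interneuron-like class 54 and 82 in replicates 2 and 4. Eomes was at 525 and 681 CPM in IPC-like cells, and Neurod6 was at 910 and 679 CPM in excitatory neuron-like cells. Lhx6 was at 292 and 256 CPM in MGE interneuron-like cells. Sox2 was at 253 and 252 CPM in RGC-like cells against 3.21 and 3.75 CPM in excitatory neuron-like cells, but it was also at 231 and 228 CPM in MGE interneuron-like cells. The microglial gene Csf1r was at 12.3 and 14.6 CPM in RGC-like cells, of which 5 and 8 held UMIs of at least 3 of 7 microglia markers. Without those cells, a choice made after seeing the data, every member kept its call in each comparison with RGC-like cells. Against excitatory neuron-like, IPC-like and MGE interneuron-like cells, 9, 4 and 8 members were called. Of all 12205 genes tested in this setting, 6687, 4033 and 6529 were called. CPM stands throughout for the UMIs of a gene per 1000000 UMIs summed over the cells of a class in 1 library.

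All 10 genes were found by symbol in RefSeq on GRCm38.p6, the assembly that mm10 names. Actl6a lies at chr3:32708546-32726973, Actl6b at chr5:137553361-137569582, Ss18l1 at chr2:180042483-180070201, Phf10 at chr17:14944994-14961260 and Dpf1 at chr7:29303952-29317592. Dpf2 lies at chr19:5896516-5912871, Dpf3 at chr12:83213751-83487736, Smarca2 at chr19:26605073-26778321 and Smarca4 at chr9:21616106-21704230, and Ss18 lies on chromosome 18. Dpf3 and Smarca2 span 273986 and 173249 bases, against 13641 bases for Dpf1. Whether reads from introns were counted is not given in the sources used here, so the scale of the 2 long genes can differ from that of the short ones, and levels are compared below only between classes, never between genes.

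The sequences shown first are of the kinds through which Rest and miR-9-3p are known to act, and whether either acts on the members here was not tested. The motif of Rest, called RE1, has a left part (TCAGCACC) and a right part (GGACAG). Windows of 300 bases, from 250 bases before to 50 after the start of 32851 RefSeq promoters, were searched on both strands, and 9 of the 10 members had a window (Ss18 had none). The left part was in 1.65% of all windows and, among the members, in that of Actl6b, and the right part was in 22.2% of windows, among the members those of Actl6b and Dpf2. The whole motif was not searched for, and any spacing of its parts within 30 bases was accepted. Both parts in order on 1 strand within 30 bases were in 23 windows (0.07%), of which 1 was a member's, that of Actl6b. The pair lies at chr5:137553566-137553592 (GRCm38.p6, printed on the + strand, the motif reading on the opposite strand), inside the annotated span of the gene, at bases 21 to 47 after the start used for its window, with 9 bases between the parts. Capitals mark both parts:

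Actl6b RE1 parts: agCTGTCCggccgcctcGGTGCTGAtc

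The mature miR-9-3p is encoded at 3 loci with the same sequence, chr3:88215652-88215673, chr7:79505318-79505339 and chr13:83738858-83738879 (all on the + strand), and the stretch pairing with its seed was found once in the 377 bases after the stop codon of the canonical Actl6a transcript of GENCODE vM39, starting at base 38. Capitals mark the seed (bases 2 to 8) and the bases that pair with it:

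miR-9-3p: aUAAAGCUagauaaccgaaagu

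Actl6a match: acctcaacgtctgtAGCTTTAgt

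The same match was present after the stop of 12.2% of 20858 canonical coding transcripts, and among the members in Actl6a and Smarca2, each once. CCAAT was in 37.4% of windows (Actl6b, Dpf1, Dpf2 and Dpf3 among the members) and GGGCGG, the GC box, in 35.7% (all 9 members but Dpf2). The neurogenic E-box CAGATG (17.2% of windows) and the E2F sites TTTCGCGC (0.323%) and TTTGGCGC (0.514%) were in no member's window. A match is a description of the letters, and binding was not measured.

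RGC-like and excitatory neuron-like cells were compared first, the start and the end of the lineage made in the dorsal telencephalon. Of the 10 members, 3 were higher in RGC-like cells (Actl6a, Ss18 and Phf10), 6 were higher in excitatory neuron-like cells (Actl6b, Ss18l1, Dpf1, Dpf3, Smarca2 and Smarca4), and Dpf2 did not pass the test (edgeR quasi-likelihood test on class sums, Benjamini-Hochberg adjusted p under 0.05 over 12227 genes). The test called 26.0% of all genes tested as higher in RGC-like cells and 29.1% as higher in excitatory neuron-like cells. The median log2 fold change was -1.31 over the members and -0.04 over all genes tested. With 2 libraries the test measures the spread between 2 samples, and whether they come from separate litters is not given in the sources used here; both titles carry the same number before the replicate number, and what it stands for is not stated. The 6 comparisons share class sums, so their results are not independent of one another.

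**Figure D1:**
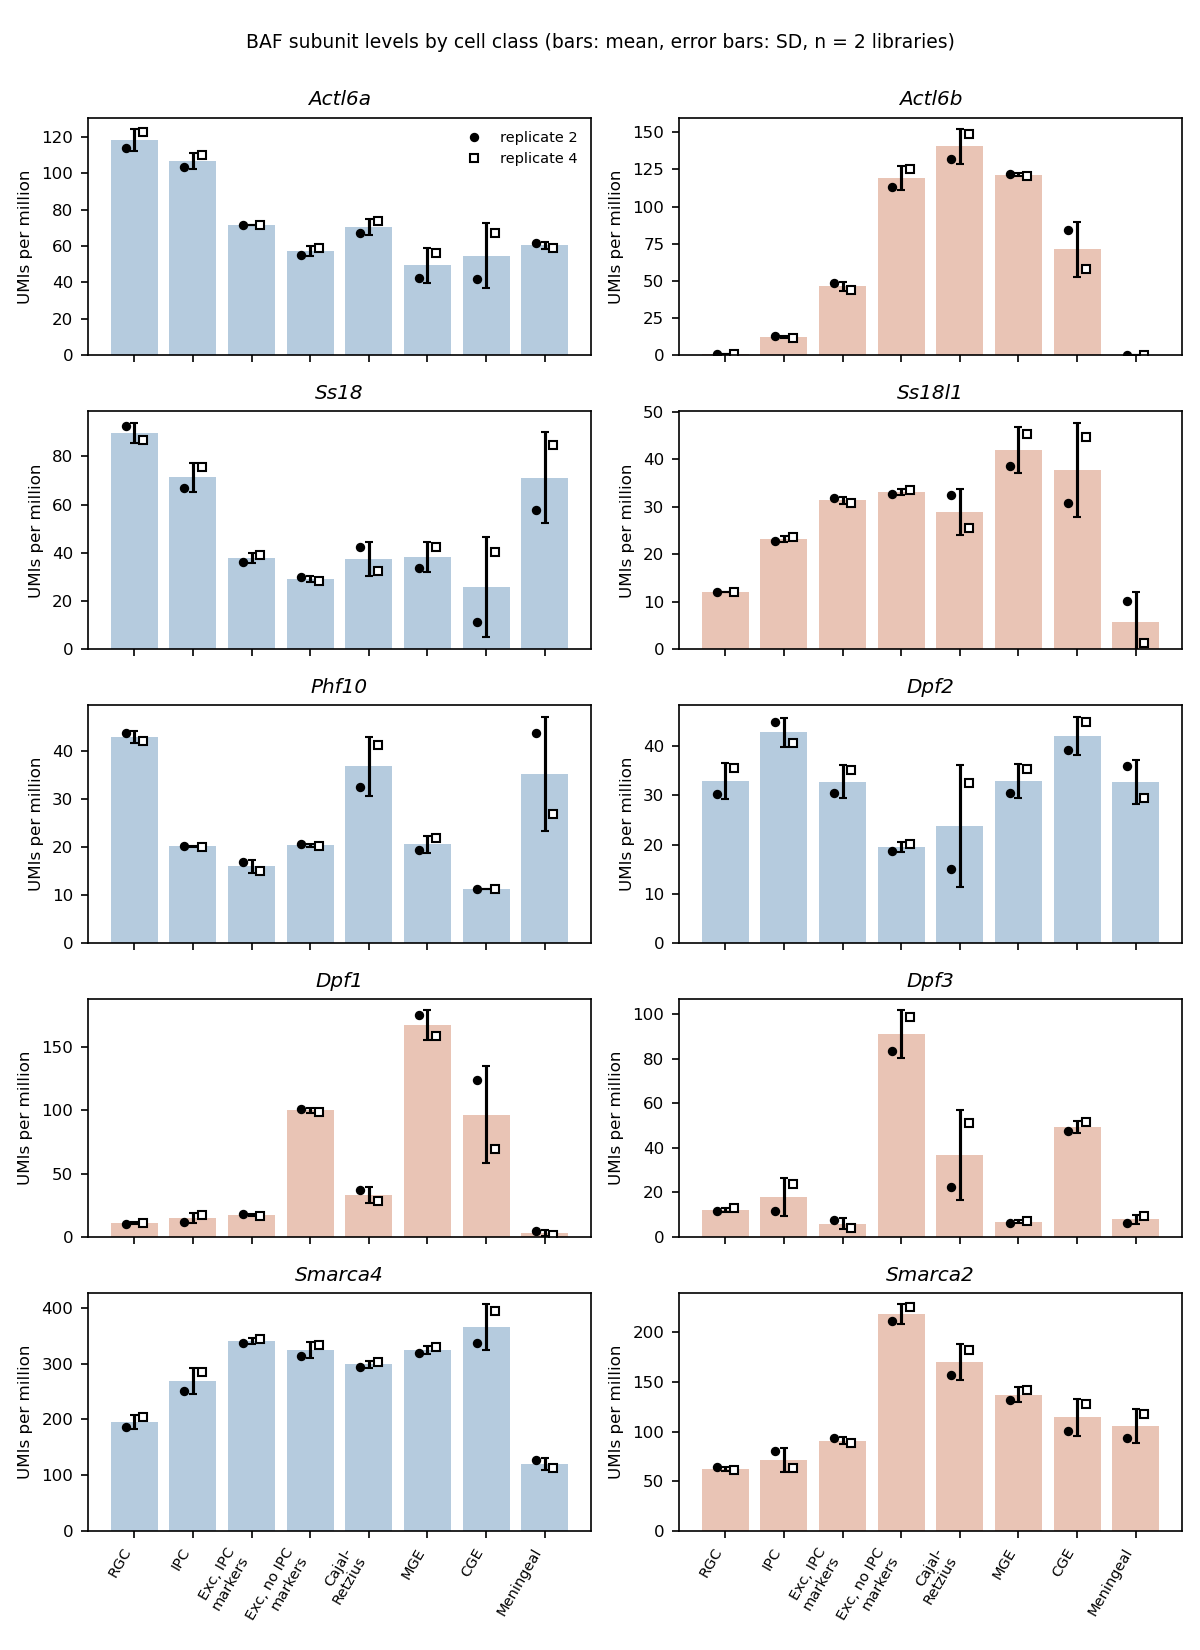
Level of each of the 10 genes (y axes, CPM) in 8 classes, with bars at the mean of 2 libraries, error bars of 1 SD (n = 2) and a dot per library; blue panels are the progenitor members and Smarca4, orange panels the neuronal members and Smarca2. Excitatory neuron-like cells are split by raised IPC markers, and Actl6b runs from 0.758 CPM in RGC-like cells to 119 CPM in excitatory neuron-like cells without IPC markers.

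The largest fold change among the 10 belonged to an actin-like subunit. Actl6b, the neuronal form, was almost undetected in RGC-like cells, at 0.787 CPM in replicate 2 (6 UMIs) and 0.730 CPM in replicate 4 (7 UMIs), and reached 99.6 and 103 CPM in excitatory neuron-like cells. The log2 fold change was -7.24 ± 0.23 (SE; n = 2 libraries), a 151-fold difference (edgeR adjusted p = 6.71e-09). Under the alternatives it lay between -5.45, with cells of at most 5% mitochondrial UMIs, and -11.6, with G1-like progenitors only, where RGC-like cells held 0 UMIs, so the size of this fold rests on very few molecules, although the gene passed the test under all 16. Actl6b was also at 0 UMIs in meningeal fibroblast-like cells (18 and 30 cells), which allows up to 3.85 and 4.02 CPM, and in hem or choroid plexus-like cells (18 and 9 cells), which allows up to 3.496 and 7.10 CPM, limits of counting error only.

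Actl6a, the progenitor form, changed far less. It was at 114 and 122 CPM in RGC-like cells and still at 58.6 and 62.5 CPM in excitatory neuron-like cells, a 1.67-fold difference (log2 fold change 0.74 ± 0.16; edgeR adjusted p = 0.00167). With G1-like progenitors only, the log2 fold change was 0.42 and the call was lost (edgeR adjusted p = 0.136). Phf10 lost its call in the same setting (0.64, edgeR adjusted p = 0.123). As a share of the UMIs of both genes, Actl6b took 0.640% ± 0.0672 (SD, n = 2) in RGC-like and 62.6% ± 0.507 in excitatory neuron-like cells. Such a share is not corrected for transcript length and is read here only for its change between classes.

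UMIs of both genes were found under the same barcodes in the excitatory neuron-like class. Without thinning, 66.7% and 54.1% of these cells held UMIs of both genes in replicates 2 and 4, against 1.75% and 1.93% of RGC-like cells. When each cell was thinned to 10000 UMIs, 22.9% and 22.5% of excitatory neuron-like cells held both, and 23.7% and 24.4% would do so if detection of the 2 genes were independent. Every class held Actl6a, so no share of barcodes that take it up from free RNA could be read, and its part in the joint detection was not tested. Thinned to 5000 UMIs, Actl6b was found in 0.611% ± 0.452 (SD, n = 2) of RGC-like, 5.52% of IPC-like and 36.7% of excitatory neuron-like cells, and in 0 of 18 and 0 of 28 meningeal fibroblast-like cells, which are not neural. The unthinned shares were 2.06%, 16.3%, 76.8% and 0%, at median totals of 31627 and 26019.5 UMIs in RGC-like cells and over 779739 and 745429 UMIs in all in the meningeal fibroblast-like cells.

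Ss18 and Ss18l1, which form a module with the actin-like subunits, moved apart in the same way with smaller folds. Ss18 was at 92.7 and 86.8 CPM in RGC-like cells and at 31.3 and 31.4 CPM in excitatory neuron-like cells (2.45-fold; log2 fold change 1.30 ± 0.23; edgeR adjusted p = 0.000457). Ss18l1, a calcium-responsive coactivator in neurons, was at 12.07 and 12.09 CPM in RGC-like and at 32.5 and 32.9 CPM in excitatory neuron-like cells (3.15-fold; -1.66 ± 0.22; edgeR adjusted p = 3.80e-05). The libraries of the 2 classes did not overlap for either gene, and the share of all genes without overlap was not counted. Ss18l1 made up 11.9% ± 0.501 (SD, n = 2) of the UMIs of the pair in RGC-like and 51.1% ± 0.182 in excitatory neuron-like cells.

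Among the double PHD-finger subunits, which read acylated histone tails, Dpf1 and Dpf3 were the neuronal members. Dpf1 rose from 10.6 and 11.4 CPM in RGC-like to 83.6 and 76.4 CPM in excitatory neuron-like cells (8.45-fold; -3.08 ± 0.24; edgeR adjusted p = 4.85e-07). Dpf3 rose from 11.7 and 12.8 CPM to 67.6 and 73.0 CPM (6.67-fold; -2.74 ± 0.27; edgeR adjusted p = 3.93e-06). Phf10, the progenitor member, was at 43.7 and 41.9 CPM in RGC-like and at 19.8 and 18.7 CPM in excitatory neuron-like cells (1.91-fold; 0.93 ± 0.15; edgeR adjusted p = 0.000257). In the 3 genes, all values of one class lay above all values of the other. The share of all genes that part in this way was not counted, so this describes the values only.

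Dpf2, the broadly expressed member, was at 30.3 and 35.5 CPM in RGC-like and at 21.2 and 24.2 CPM in excitatory neuron-like cells (0.32 ± 0.18; edgeR adjusted p = 0.159). It passed the test under 3 of 16 alternatives, among them when the excitatory clusters with raised IPC markers were left out (0.53, edgeR adjusted p = 0.0268). Dpf1 and Dpf3 together took 23.5% ± 0.448 (SD, n = 2) of the UMIs of the 4 genes in RGC-like and 78.2% ± 0.703 in excitatory neuron-like cells.

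The 2 ATPases both rose in neurons. Smarca2 was at 64.1 and 61.1 CPM in RGC-like and at 186 and 188 CPM in excitatory neuron-like cells (3.49-fold; -1.80 ± 0.17; edgeR adjusted p = 2.17e-06). Smarca4, the ATPase that progenitors need for self-renewal, was also higher in neurons, at 186 and 204 CPM in RGC-like and 319 and 337 CPM in excitatory neuron-like cells (1.96-fold; -0.97 ± 0.15; edgeR adjusted p = 0.000171). Smarca2 was 24.3% ± 1.88 (SD, n = 2) of the UMIs of both ATPases in RGC-like and 36.4% ± 0.755 in excitatory neuron-like cells. Hem or choroid plexus-like cells had a larger share, at 60.7% and 72.6% in replicates 2 and 4.

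**Figure D2:**
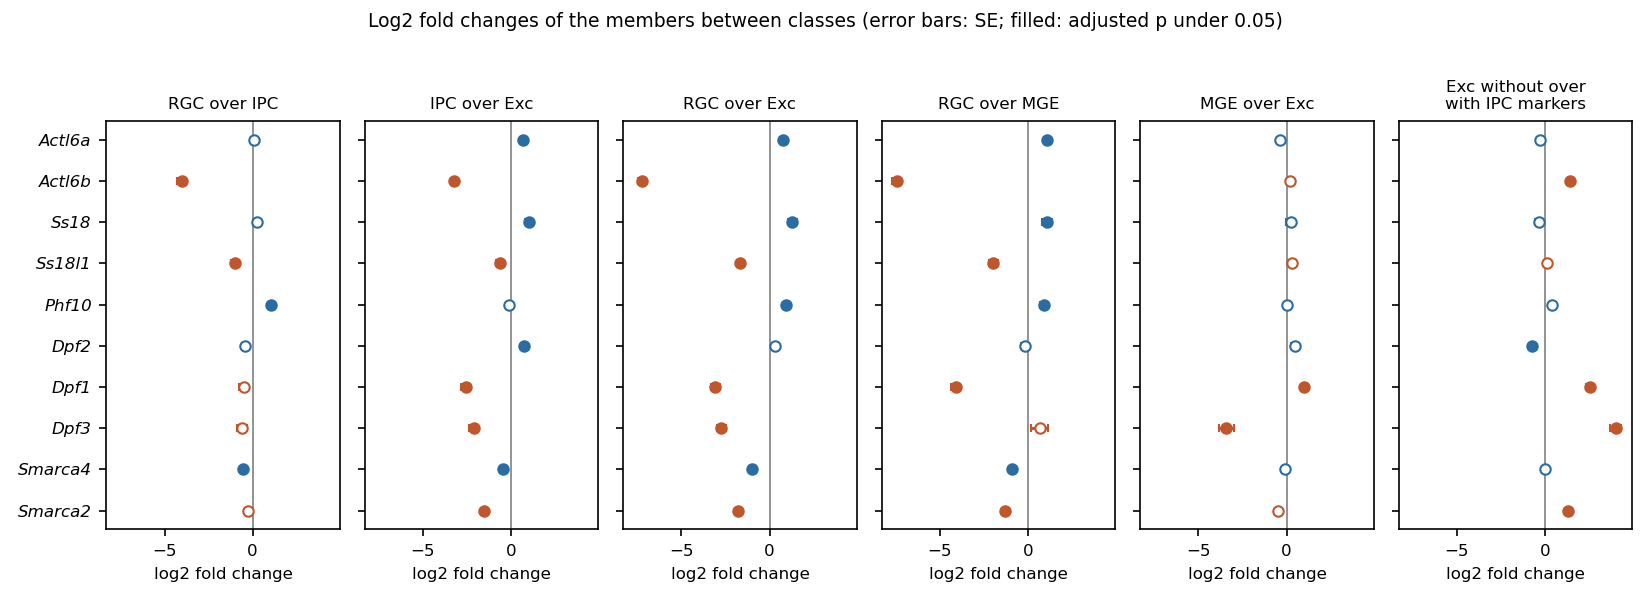
Log2 fold change of each member (points, with 1 SE from the fit; 2 libraries) in 6 comparisons, with filled points passing the edgeR test at an adjusted p of 0.05; the zero line marks equal levels. Actl6b reaches -7.24 between RGC-like and excitatory neuron-like cells and 0.21 between MGE interneuron-like and excitatory neuron-like cells.

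The intermediate step was placed by comparing RGC-like with IPC-like cells. Of the 10 members, 1 was higher in RGC-like cells (Phf10) and 3 were higher in IPC-like cells (Actl6b, Ss18l1 and Smarca4), while 6 did not pass the test. Among all genes tested, 17.8% were called higher in RGC-like and 15.8% higher in IPC-like cells. The median log2 fold change of the members was -0.47, and that of all genes was 0.02. With G1-like progenitors only, 2 members were called, Actl6b and Smarca4, among 1851 of 11096 genes.

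Actl6b in IPC-like cells was at 12.7 CPM (61 UMIs) and 11.6 CPM (67 UMIs), 16.3-fold above RGC-like cells (-4.03 ± 0.26; edgeR adjusted p = 1.20e-06). Of these UMIs, 48 and 51 came from 1 of the 3 IPC-like clusters, the Neurod1-led one (31 and 56 cells), which had 6 raised excitatory markers beside 6 raised IPC markers, and the IPC-like cluster with Neurog2 among its leading genes held 3 and 2. Ss18l1 rose to 22.7 and 23.6 CPM in IPC-like cells (-1.001 ± 0.23; edgeR adjusted p = 0.00521). The call was lost at a Leiden resolution of 0.5 (-0.65, edgeR adjusted p = 0.0739). With G1-like progenitors only it was lost at a similar log2 fold change (-0.998, edgeR adjusted p = 0.1249). Phf10 was at 20.2 and 19.99 CPM in IPC-like cells, 2.04-fold below RGC-like cells (1.03 ± 0.16; edgeR adjusted p = 0.000539), which is near its level in excitatory neuron-like cells (-0.10 ± 0.16 between IPC-like and excitatory neuron-like cells; edgeR adjusted p = 0.698). Of the 3 progenitor members, Phf10 was thus the one called between the progenitor classes. Its difference was not called with G1-like progenitors only (0.72, edgeR adjusted p = 0.149).

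Actl6a and Ss18 did not differ between the progenitor classes beyond the error. Actl6a was at 104 and 110 CPM in IPC-like cells (0.08 ± 0.16; edgeR adjusted p = 0.733) and Ss18 at 66.9 and 75.6 CPM (0.27 ± 0.23; edgeR adjusted p = 0.404). Dpf2 was at 44.8 and 40.7 CPM in IPC-like cells (-0.44 ± 0.19; edgeR adjusted p = 0.0916) and Smarca2 at 80.4 and 63.3 CPM (-0.26 ± 0.17; edgeR adjusted p = 0.262). Dpf1 was at 11.9 and 17.7 CPM (-0.50 ± 0.25; edgeR adjusted p = 0.156), with a log2 fold change between -1.67 and -0.04 over the alternatives, 1 of 15 of which called it. In G1-like cells Dpf1 was at 3 and 2 UMIs in the RGC-like class and at 9.38 and 14.1 CPM in the IPC-like class. Dpf3 was at 11.9 and 23.8 CPM in IPC-like cells. The 2 libraries spread widely for Dpf3, and its direction against RGC-like cells depended on how cells were classed: -0.62 ± 0.29 (edgeR adjusted p = 0.126) here, but 2.10 at a Leiden resolution of 0.5 (edgeR adjusted p = 0.000471) and 1.90 with genes scaled within each library (edgeR adjusted p = 0.000274). Smarca4 was at 252 and 285 CPM in IPC-like cells (-0.52 ± 0.15 against RGC-like cells; edgeR adjusted p = 0.0197). This call held in 12 of 15 alternatives. It was lost with cells of at least 500 genes (edgeR adjusted p = 0.0752) and at a Leiden resolution of 0.5 (edgeR adjusted p = 0.121). Keeping all genes with at least 1 count lost it as well (edgeR adjusted p = 0.0975).

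IPC-like cells were also set against excitatory neuron-like cells. Here 3 members were higher in IPC-like cells (Actl6a, Ss18 and Dpf2), 6 were higher in excitatory neuron-like cells, and Phf10 did not pass the test, while 15.4% of all genes were called higher in IPC-like and 18.7% higher in excitatory neuron-like cells. The median log2 fold change was -0.55 over the members and -0.02 over all genes. The folds of the neuronal members were 9.29 for Actl6b (-3.22 ± 0.17; edgeR adjusted p = 7.75e-07), 5.99 for Dpf1 (-2.58 ± 0.24; edgeR adjusted p = 7.16e-06), 4.36 for Dpf3 (-2.12 ± 0.27; edgeR adjusted p = 7.84e-05) and 2.91 for Smarca2 (-1.54 ± 0.17; edgeR adjusted p = 2.26e-05). Actl6a (0.66 ± 0.16; edgeR adjusted p = 0.00695), Ss18 (1.03 ± 0.23; edgeR adjusted p = 0.00466) and Dpf2 (0.75 ± 0.18; edgeR adjusted p = 0.00718) were higher in IPC-like cells. Ss18l1 (-0.66, edgeR adjusted p = 0.0315) and Smarca4 (-0.45, edgeR adjusted p = 0.0380) were called here but in only 10 and 6 of 14 alternatives, and Actl6a in 13.

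**Figure D3:**
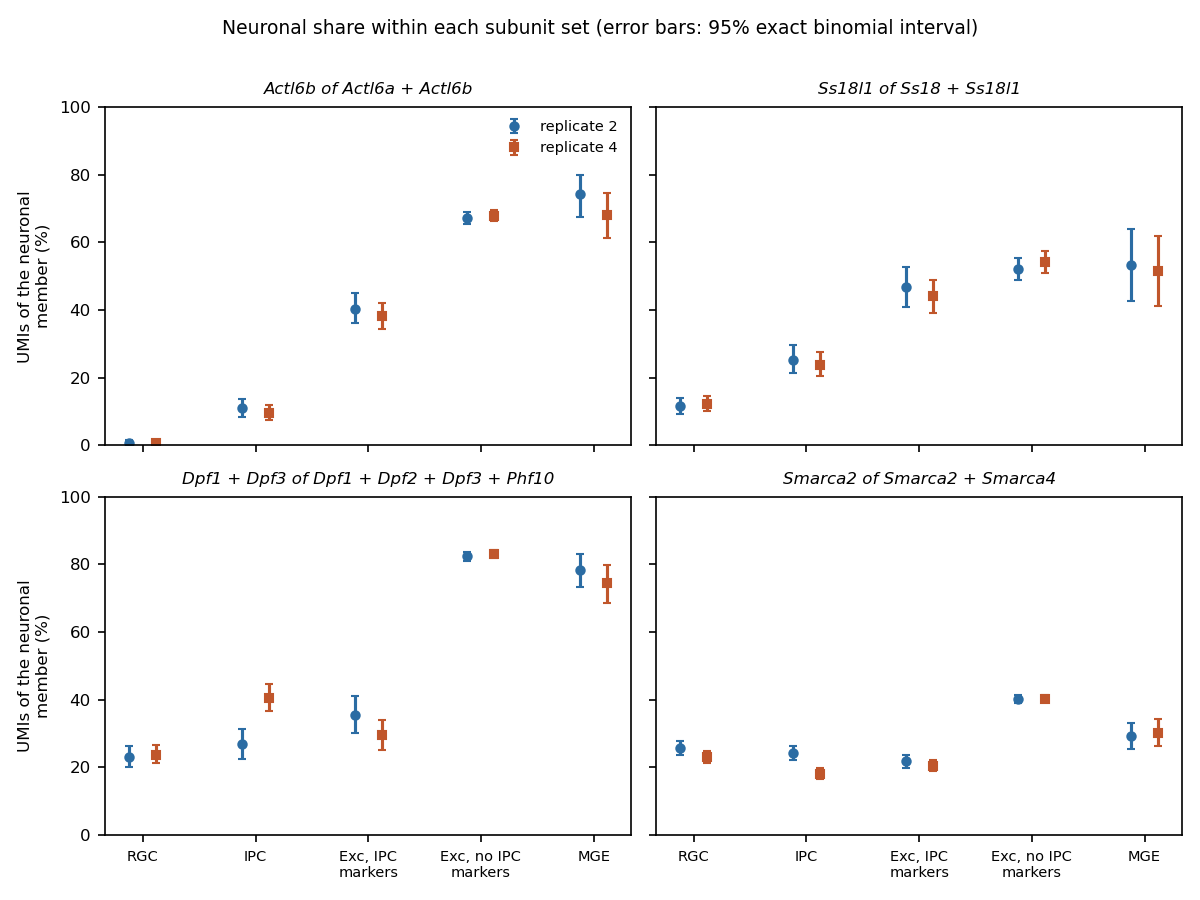
Share of the UMIs of each subunit set that belong to its neuronal members (y axes, percent; for the ATPases, Smarca2) in 5 classes, with 1 point per library and 95% exact binomial intervals that cover counting error only. Actl6b climbs through every class from 0.640% in RGC-like to 67.6% in excitatory neuron-like cells without IPC markers, while the shares of Dpf1 with Dpf3 and of Smarca2 rise at the last step.

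The excitatory class was then divided by maturity, with 2 of its 8 clusters (440 cells) that still had at least 3 raised IPC markers, with Neurod1 among their leading genes, on one side and the 6 clusters without on the other. In later over newborn cells, 4 members were higher (Actl6b, Dpf1, Dpf3 and Smarca2), 1 was lower (Dpf2) and 5 did not pass the test, out of 12.5% of 14396 genes called higher and 9.22% called lower. The median log2 fold change was 0.26 over the members and 0.02 over all genes.

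The largest fold among the 10 belonged to Dpf3, a subunit also known from heart and muscle. It was at 7.84 and 4.27 CPM with IPC markers and at 83.6 and 98.6 CPM without (16.0-fold; 3.995 ± 0.33; edgeR adjusted p = 3.15e-06). Dpf1 went from 18.1 and 16.7 CPM to 101 and 98.6 CPM (5.91-fold; 2.56 ± 0.22; edgeR adjusted p = 4.52e-06). Neither gene was above 18.1 CPM in the summed newborn cells of either library, but the newborn cluster with Sema3c among its leading genes held 33.8 and 22.4 CPM of Dpf1, against 10.8 and 14.9 CPM in the other. Actl6b, by contrast, was at 48.5 and 44.2 CPM with IPC markers and at 113 and 125 CPM without (2.65-fold; 1.41 ± 0.15; edgeR adjusted p = 2.95e-05). Smarca2 rose from 93.4 and 88.4 CPM to 211 and 225 CPM (2.48-fold; 1.31 ± 0.16; edgeR adjusted p = 6.34e-05). Not every cluster followed these class differences: the newborn cluster with Sema3c held 140 and 170 CPM of Smarca2 and 73.0 and 79.2 CPM of Actl6b, against 85.3 and 61.2 CPM and 68.5 and 75.8 CPM in the later cluster led by Adamtsl3. Dpf3, too, was at 16.9 and 10.5 CPM in that newborn cluster, against 12.8 and 8.84 CPM in that later one. Dpf2 moved the other way, from 30.4 and 35.2 CPM to 18.7 and 20.1 CPM (-0.72 ± 0.18; edgeR adjusted p = 0.0119).

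Actl6a (-0.28 ± 0.15; edgeR adjusted p = 0.226), Phf10 (0.40 ± 0.17; edgeR adjusted p = 0.109) and Smarca4 (-0.03 ± 0.15; edgeR adjusted p = 0.931) were not called at this step, and neither were Ss18 and Ss18l1. Ss18l1 was at 31.9 and 30.9 CPM with IPC markers and at 32.7 and 33.6 CPM without (0.12 ± 0.19; edgeR adjusted p = 0.712). Ss18 was at 36.3 and 39.3 CPM and then at 30.02 and 28.4 CPM (-0.33 ± 0.23; edgeR adjusted p = 0.350). The shares of the neuronal members describe the order of the steps. From RGC-like to IPC-like to newborn to later excitatory neuron-like cells, Actl6b took 0.640%, 10.3%, 39.3% and 67.6% of its pair, and Ss18l1 took 11.9%, 24.6%, 45.4% and 53.2%. Dpf1 with Dpf3 took 23.5%, 33.7%, 32.5% and 82.8% of their set, the IPC-like value being a mean of 26.8% and 40.6%. Smarca2 took 24.3%, 21.2%, 21.1% and 40.2%. Classes are not a time course, and the order of the classes is the known order of the lineage.

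**Figure D4:**
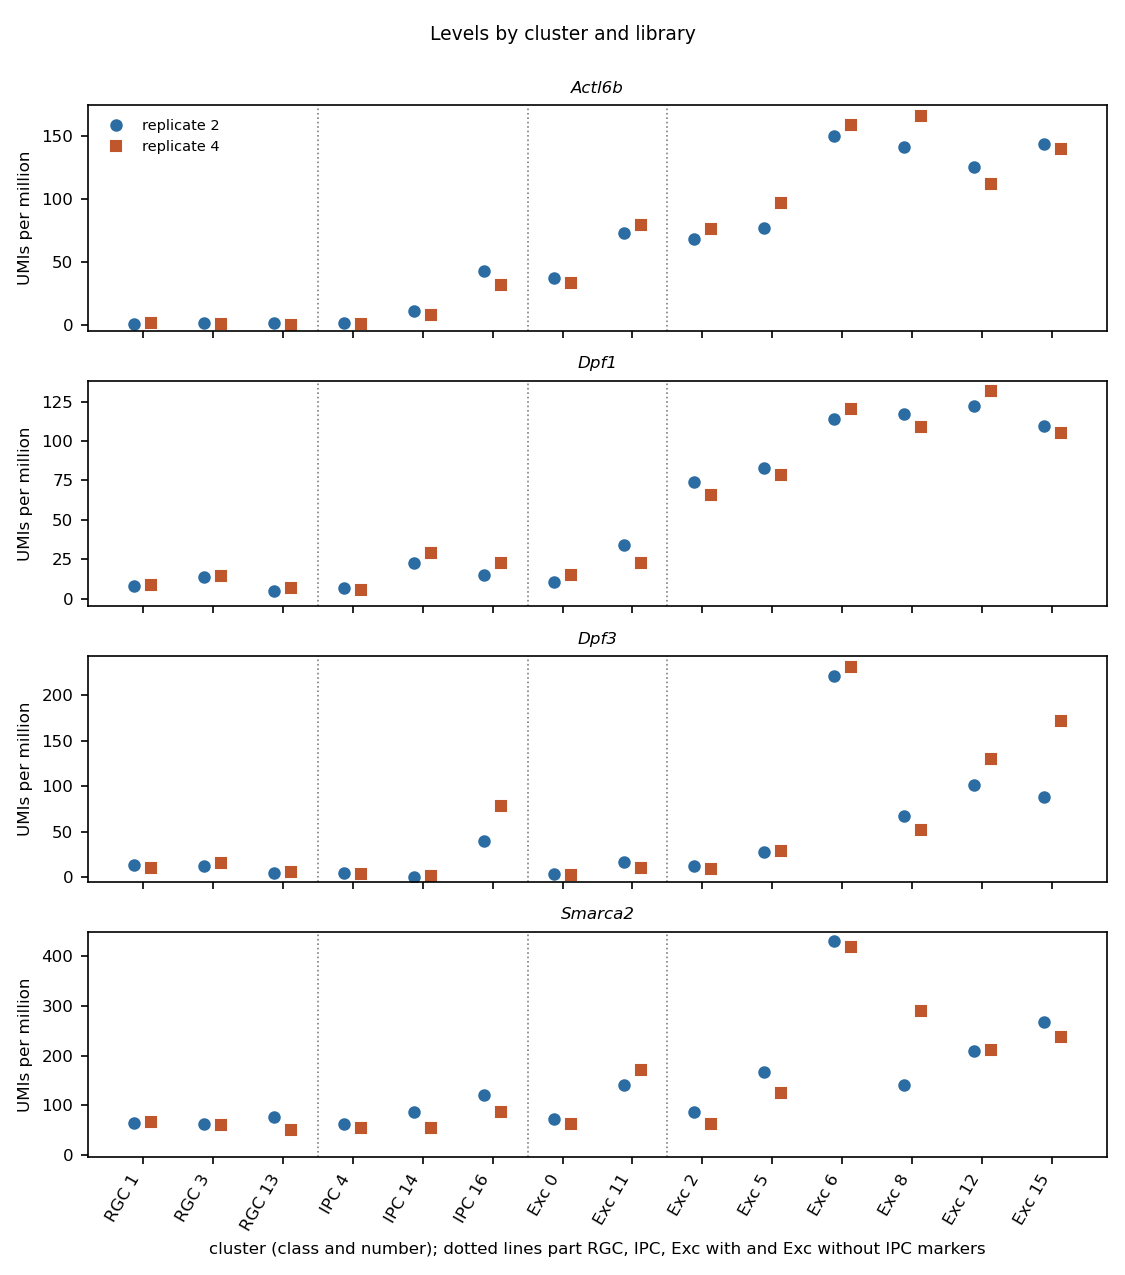
Levels of Actl6b, Dpf1, Dpf3 and Smarca2 (y axes, CPM) in 14 clusters of the progenitor and excitatory classes, with a dot per library. Dpf3 stands at 2.93 CPM in the newborn cluster with Eomes among its leading genes (Exc 0) and at 226 CPM in the excitatory cluster led by Rgs6 (Exc 6), while Actl6b spans 35.01 to 154 CPM over the excitatory clusters.

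Single clusters, given as a description without a test, showed where within these classes the genes appeared. Among IPC-like cells, Actl6b was at 1.10 and 0.859 CPM in the cluster with Neurog2 among its leading genes. It was at 10.7 and 7.75 CPM in the dividing cluster with Mki67 among its leading genes, and at 42.6 and 31.5 CPM in the cluster led by Neurod1. Dpf3 was at 4.39 and 3.44 CPM, at 0 and 1.11 CPM (0 and 2 UMIs) and at 40.0 and 78.5 CPM in the same 3 clusters. The Dpf3 UMIs of the IPC-like class thus lay mostly in the Neurod1-led cluster. In the newborn cluster with Eomes among its leading genes, Dpf3 was at 3.60 and 2.26 CPM, and in the other cluster with IPC markers it was at 16.9 and 10.5 CPM.

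The 6 later excitatory clusters differed most in Dpf3. It ran from 10.8 ± 2.80 CPM (SD, n = 2) in the cluster led by Adamtsl3 to 226 ± 7.57 CPM in the cluster led by Rgs6, 20.9-fold. Smarca2 had its lowest and highest level in the same 2 clusters, at 73.2 ± 17.0 and 425 ± 8.59 CPM, 5.80-fold. Over the same 6 clusters, Actl6a spanned 2.38-fold, Actl6b 2.14-fold, Ss18 2.02-fold, Dpf1 1.82-fold, Phf10 1.71-fold, Dpf2 1.57-fold, Ss18l1 1.33-fold and Smarca4 1.25-fold. Actl6a was lowest, at 33.4 ± 3.54 CPM, in the cluster where Dpf3 and Smarca2 were highest. Smarca2 in the Tafa1-led cluster was at 141 and 289 CPM, the widest spread between libraries for this gene among these clusters.

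Actl6b in dividing cells was examined through cell cycle phases assigned from marker scores. In IPC-like cells it was at 1 UMI in each library in S-like cells, at 13.1 CPM (10 UMIs) and 12.3 CPM (17 UMIs) in G2/M-like cells, and the G1-like cells held 15.6 and 15.4 CPM. The G1-like value is a mean over unlike clusters, since the Neurod1-led cluster, with Mki67 at 4.44 and 4.33 CPM, held 48 and 51 of the Actl6b UMIs of the class and the one with Neurog2 held 3 and 2. In RGC-like cells it was at 2 and 5 UMIs in S-like cells, at 4 and 2 UMIs in G2/M-like cells and at 0 UMIs in the G1-like cells of both libraries. Doublets of a dividing and a neuronal cell were removed only as far as they were called, at 0.991% and 2.44% of cells, and their part in the G2/M value was not tested.

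Actl6a was highest in G2/M-like cells. In the IPC-like class, G2/M-like cells held 150 and 146 CPM, S-like cells 117 and 126 CPM and G1-like cells 88.8 and 88.0 CPM. In the RGC-like class it was at 121 and 130 CPM, at 112 and 116 CPM and at 87.9 and 95.1 CPM. The phases kept this order in both classes and both libraries. By these scores 29 and 30 of 228 and 362 RGC-like cells were G1-like, against 101 and 131 of 152 and 231 IPC-like cells, and the scores alone do not show that a cell was cycling. Mki67, a proliferation marker, was at 72.3 and 59.1 CPM in the RGC-like cluster led by Gm29260, Creb5, Plce1 and Aldoc, the one with the most cells, and at 507 and 424 CPM in the RGC-like cluster with Top2a among its leading genes.

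**Figure D5:**
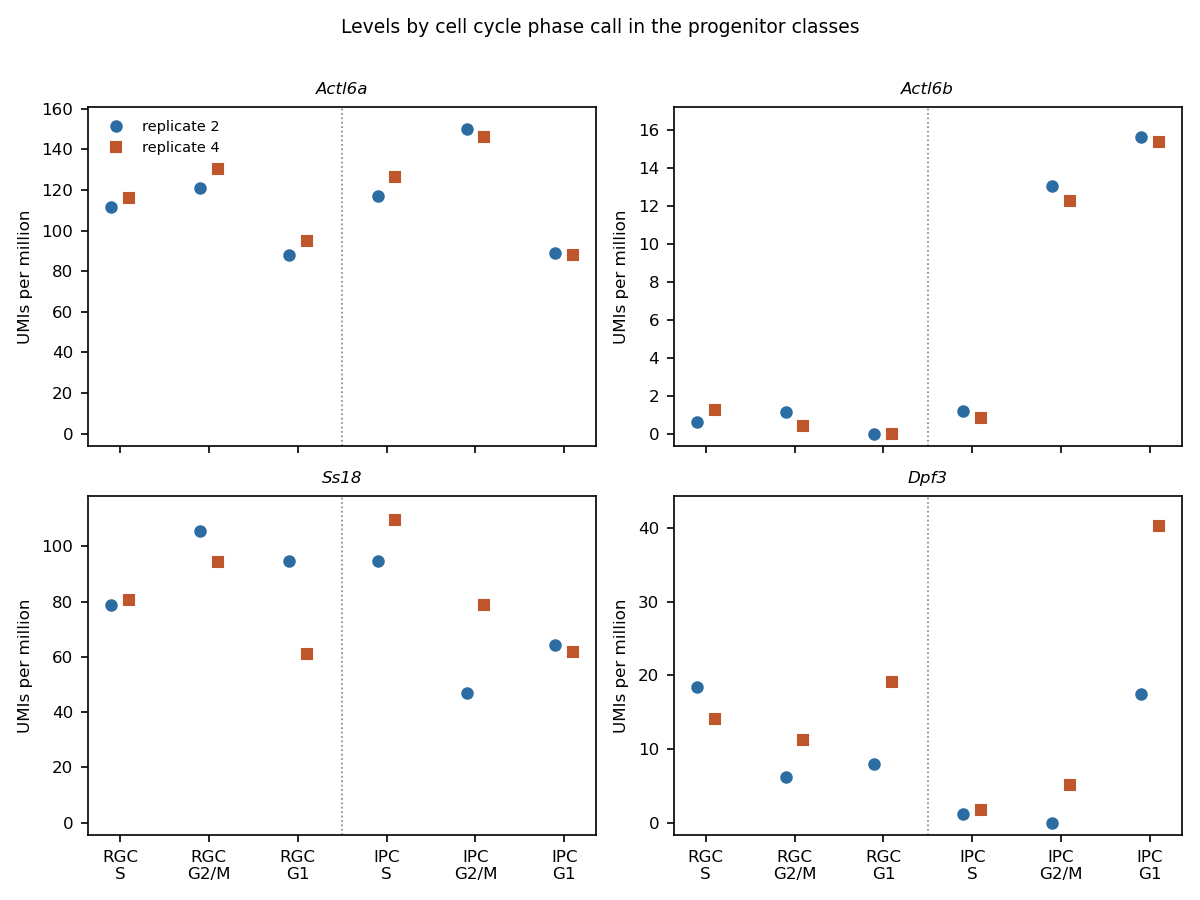
Levels of Actl6a, Actl6b, Ss18 and Dpf3 (y axes, CPM) in RGC-like and IPC-like cells by S-like, G2/M-like and G1-like phase, with a mark per library. Actl6a is highest in G2/M-like cells of both classes, at 126 and 148 CPM, and the G2/M-like and G1-like cells of the IPC-like class hold 12.7 and 15.5 CPM of Actl6b.

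MGE interneuron-like cells, which enter the cortex from the ventral telencephalon, tell whether a second neuronal lineage showed the same exchange. Against them, 3 members were higher in RGC-like cells (Actl6a, Ss18 and Phf10), 5 were lower (Actl6b, Ss18l1, Dpf1, Smarca2 and Smarca4), and Dpf2 and Dpf3 did not pass the test, with 27.3% of all genes called higher in RGC-like and 26.4% higher in MGE interneuron-like cells. The median log2 fold change was -0.54 over the members and 0.03 over all genes. RGC-like cells of the dorsal wall are not the progenitors of these interneurons, so this comparison crosses lineages. Actl6b was at 122 and 121 CPM in MGE interneuron-like cells, 175-fold above RGC-like cells (-7.45 ± 0.24; edgeR adjusted p = 9.99e-09). Ss18l1 was at 38.5 and 45.3 CPM (3.90-fold; edgeR adjusted p = 5.15e-05), and Dpf1 was at 175 and 159 CPM (17.1-fold; edgeR adjusted p = 1.51e-07). Smarca2 was 2.47-fold (edgeR adjusted p = 6.31e-05) and Smarca4 1.88-fold (edgeR adjusted p = 0.000387) above RGC-like cells. Actl6a, Ss18 and Phf10 were 2.13-fold, 2.09-fold and 1.85-fold below them (edgeR adjusted p = 0.000350, 0.00565 and 0.00312), Phf10 losing its call with cells thinned to 5000 UMIs (edgeR adjusted p = 0.0758). Dpf2 was at 30.5 and 35.4 CPM (-0.17 ± 0.22; edgeR adjusted p = 0.544).

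Set directly against each other, the 2 neuronal classes differed in 2 members. Dpf1 was higher in MGE interneuron-like cells (2.02-fold; 1.02 ± 0.22; edgeR adjusted p = 0.00647) and Dpf3 higher in excitatory neuron-like cells (10.6-fold; -3.41 ± 0.40; edgeR adjusted p = 9.56e-05), while 7.93% of all genes were called higher in MGE interneuron-like and 11.7% higher in excitatory neuron-like cells. The median log2 fold change was 0.13 over the members and -0.07 over all genes. Dpf3 was at 6.42 and 7.25 CPM in MGE interneuron-like cells (8 UMIs in each library), against 11.7 and 12.8 CPM in RGC-like cells (0.67 ± 0.48; edgeR adjusted p = 0.256). The Dpf3 call held in all 13 alternatives and that of Dpf1 in 10. Median totals were lower in MGE interneuron-like cells, 23450.5 and 11006 UMIs against 33952 and 24254 UMIs in excitatory neuron-like cells; with cells thinned to 5000 UMIs, neither call was lost.

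Dpf3 was low in each of the 3 sub-clusters of the MGE interneuron-like class, with 1 and 6, 4 and 2, and 3 and 0 UMIs. CGE (caudal ganglionic eminence) interneuron-like cells, 22 and 38 in number, were at 47.7 and 51.5 CPM of Dpf3 (17 and 23 UMIs). Their 2 sub-clusters did not keep 1 order, with 4 and 14 UMIs (14.5 and 67.4 CPM) in the one led by Foxp2 (17 and 18 cells) and 13 and 9 UMIs (162 and 37.7 CPM) in the one led by Pdzrn3 (5 and 20 cells). The dividing GABAergic sub-cluster led by Top2a (6 and 40 cells) was at 53.7 and 52.2 CPM of Dpf3 (9 and 41 UMIs). Low Dpf3 was not particular to the MGE interneuron-like class: striatal projection neuron-like cells, of which replicate 4 held 67 and replicate 2 held 1, were at 11.1 CPM in replicate 4 (12 UMIs), and an unnamed sub-cluster led by Sst and Sgcz (18 cells, replicate 4) was at 1 UMI. The excitatory class held low cells as well, at 7.84 and 4.27 CPM in its newborn cells and at 12.8 and 8.84 CPM in the later cluster led by Adamtsl3, so the fold between the classes rests on its other later clusters. The other members were not called between the 2 neuronal classes, with Smarca2 nearest to the threshold (-0.50 ± 0.17; edgeR adjusted p = 0.0613), called in 8 of 13 alternatives. Actl6b (0.21 ± 0.15; edgeR adjusted p = 0.383), Ss18l1 (0.31 ± 0.24; edgeR adjusted p = 0.419), Actl6a (-0.35 ± 0.18; edgeR adjusted p = 0.224) and Smarca4 (-0.06 ± 0.15; edgeR adjusted p = 0.831) did not pass the test, and nor did Ss18 (0.23 ± 0.27; edgeR adjusted p = 0.618), Phf10 (0.04 ± 0.21; edgeR adjusted p = 0.920) and Dpf2 (0.49 ± 0.22; edgeR adjusted p = 0.158).

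Cajal-Retzius-like cells, early-born neurons of the marginal zone (16 and 24 cells), were highest of the 7 classes in Actl6b, at 132 and 149 CPM. They were at 32.4 and 41.1 CPM of Phf10, nearer to RGC-like than to excitatory neuron-like cells, and at 37.4 and 28.3 CPM of Dpf1. Meningeal fibroblast-like cells, which are not neural, were at 61.6 and 59.0 CPM of Actl6a, inside the range of the neuronal classes, and at 127 and 113 CPM of Smarca4, below RGC-like cells. Dpf1 there was at 4 and 1 UMIs and Ss18l1 at 8 and 1 UMIs.

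The other subunits of the complex were described in the same sums. Of 21 other BAF genes, 1 was higher in RGC-like cells, 10 were higher in excitatory neuron-like cells and 10 did not pass the test, beside the 26.0% and 29.1% of all genes called in these directions, with a median log2 fold change of -0.46. Bcl11b, a zinc-finger factor of deep-layer projection neurons, was at 21.2 and 20.3 CPM in RGC-like against 758 and 825 CPM in excitatory neuron-like cells (-5.47 ± 0.53; edgeR adjusted p = 2.82e-06), and its relative Bcl11a was at 269 and 318 CPM against 1022 and 1108 CPM (-2.08 ± 0.36; edgeR adjusted p = 0.000324). Bcl7a was higher in neurons (-1.83 ± 0.14; edgeR adjusted p = 4.77e-07) and its family member Bcl7c was higher in RGC-like cells (1.64 ± 0.16; edgeR adjusted p = 3.99e-06). Actb, the actin of the complex and of the cytoskeleton, was also higher in neurons (-1.24 ± 0.23; edgeR adjusted p = 0.000577). Bcl7a was at 82.2 and 96.95 CPM in RGC-like, 278 and 268 CPM in excitatory neuron-like and 96.4 and 105 CPM in MGE interneuron-like cells, lower in the last than in excitatory neuron-like cells (-1.49 ± 0.15; edgeR adjusted p = 2.58e-05). In the other comparisons the 21 genes gave 1 higher and 4 lower (IPC-like over excitatory neuron-like; 15.4% and 18.7% of all genes), 1 and 7 (RGC-like over IPC-like; 17.8% and 15.8%), 1 and 7 (RGC-like over MGE interneuron-like; 27.3% and 26.4%) and 1 and 3 (MGE interneuron-like over excitatory neuron-like, 7.93% and 11.7%). Between later and newborn excitatory neuron-like cells, 4 were lower and 0 higher in the later cells by the edgeR test (9.22% and 12.5% of all genes). An unadjusted edgeR p under 0.05 was found for 6 of the 21 and for 4753 of all 14396 genes.

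ATPases of other remodelling families were split in both directions. Of 19, 8 were higher in RGC-like cells, 4 were higher in excitatory neuron-like cells and 7 did not pass the test, beside the 26.0% and 29.1% of all genes called in these directions, with a median log2 fold change of 0.07. Hells, a helicase that supports DNA methylation in dividing cells, was at 203 and 193 CPM in RGC-like and 9.07 and 8.52 CPM in excitatory neuron-like cells (4.27 ± 0.17; edgeR adjusted p = 9.38e-09). Chd7, the gene mutated in CHARGE syndrome, was at 694 and 748 CPM in IPC-like cells, above the 368 and 382 CPM of RGC-like and the 52.7 and 81.6 CPM of excitatory neuron-like cells (2.26 ± 0.22 between the latter classes; edgeR adjusted p = 2.74e-06). Chd1 was also higher in RGC-like cells (0.68 ± 0.16; edgeR adjusted p = 0.00361). Chd3, an ATPase of the NuRD complex, was higher in neurons, at 476 and 397 CPM against 105 and 83.8 CPM (-2.43 ± 0.26; edgeR adjusted p = 7.47e-06), as were Chd5 (-2.25 ± 0.35; edgeR adjusted p = 0.000231) and Smarca1 (-0.88 ± 0.19; edgeR adjusted p = 0.00210). Of the same 19 genes, 5 were higher and 3 lower in IPC-like than in excitatory neuron-like cells (15.4% and 18.7% of all genes). Between RGC-like and IPC-like cells 1 was higher and 5 lower in the former (17.8% and 15.8% of all genes), and 6 were higher and 4 lower in RGC-like than in MGE interneuron-like cells (27.3% and 26.4%). Later over newborn excitatory neuron-like cells had 2 higher and 5 lower (12.5% and 9.22%). MGE interneuron-like over excitatory neuron-like cells had 2 higher and 0 lower by the edgeR test (7.93% and 11.7%). There, 6 of 19 and 3871 of all 12227 genes were at an unadjusted edgeR p under 0.05.

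The known regulators of the exchange were measured in the same sums, and of 7, 3 were higher and 3 lower in RGC-like than in excitatory neuron-like cells, beside 26.0% and 29.1% of all genes. Rest was at 56.8 and 61.5 CPM in RGC-like cells and at 6.88 and 9.04 CPM in IPC-like cells (7.06-fold; 2.82 ± 0.21; edgeR adjusted p = 1.97e-06), with no called difference between IPC-like and excitatory neuron-like cells (-0.20 ± 0.22; edgeR adjusted p = 0.535). Whether Rest bears on Actl6b was not tested. Rest was higher in later than in newborn excitatory neuron-like cells (1.43 ± 0.27; edgeR adjusted p = 0.00173). MGE interneuron-like cells held 20.9 and 23.6 CPM of Rest beside 122 and 121 CPM of Actl6b. The Rest corepressor Rcor1 was not called between RGC-like and excitatory neuron-like cells (0.34 ± 0.20; edgeR adjusted p = 0.177), and Rcor2 peaked in IPC-like cells at 195 and 170 CPM, against 23.2 and 26.6 CPM in RGC-like and 104 and 99.2 CPM in excitatory neuron-like cells.

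The splicing repressor Ptbp1, another known target of miR-124, stepped down from 86.7 and 89.8 CPM in RGC-like to 50.4 and 48.0 CPM in IPC-like and 14.97 and 15.05 CPM in excitatory neuron-like cells (2.33 ± 0.13 between the first and the last; edgeR adjusted p = 6.45e-08). Host transcripts stand for the microRNA genes here, since mature microRNAs are not captured by this assay. Mir124a-1hg was at 0.918 and 0.208 CPM (7 and 2 UMIs) in RGC-like cells, rising to 22.9 and 21.9 CPM in IPC-like and 85.5 and 71.3 CPM in excitatory neuron-like cells (-7.37 ± 0.32 between the first and the last; edgeR adjusted p = 2.38e-08). Mir124-2hg was at 28.6 and 24.4 CPM, 44.0 and 44.3 CPM and 131 and 125 CPM in the same classes. Mir9-3hg went the other way, from 369 and 398 CPM in RGC-like to 182 and 201 CPM in excitatory neuron-like cells (0.78 ± 0.21; edgeR adjusted p = 0.00742). Hosts at the other miR-9 loci were not followed, so this value does not stand for miR-9 as a whole.

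Genes with levels most like those of the actin-like subunits were taken from all genes tested, by Pearson's r of log2(CPM + 1) over the 14 class sums (7 classes in 2 libraries). For Actl6b they were Aplp1 (r = 0.996), Srrm3 (r = 0.992) and Gm48957 (r = 0.988), and for Actl6a they were Cyp39a1 (r = 0.941), Ddx39b (r = 0.917) and Car14 (r = 0.912). The sums share 2 libraries and their depth, so these values are descriptions. Among the members themselves, Actl6b had r = 0.913 with Smarca4, 0.884 with Dpf1 and 0.852 with Ss18l1 over the same sums, but 0.561 with Dpf3.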

How the data were processed

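Single-cell suspensions of E14.5 dorsal telencephalon were made into 2 libraries with the 10x 3′ v3.1 kit. The authors deposited raw UMI counts per gene and barcode, made with Cell Ranger 7.0.0 against mm10 per the labels and the study's methods. Intron counting, a default of that version, is not given in the sources used here. Barcodes under 1000 genes or over 10% mitochondrial UMIs were dropped, as were the doublets that Scrublet called in each library, and 2000 variable genes without the members gave 30 components and Leiden clusters (resolution 1; scanpy 1.11.5). Names needed 3 markers with a log2 ratio of 1 or more over the median cluster, each found in 25% of cells or more, a scoring rule set after the first clustering was seen. UMIs were summed per library and class, and the 7 classes of 10 or more cells per library entered 1 edgeR 4.0.16 quasi-likelihood fit (R 4.3.3, TMM, filterByExpr, Benjamini-Hochberg), the excitatory split a second. SEs were obtained from the log2 fold change and the F statistic.

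The members and lists were chosen with earlier results of these data known. All 10 members are named in every comparison; of other BAF genes and ATPases up to 4 and 3 called genes in either direction, ranked by fold change between RGC-like and excitatory neuron-like cells, all 7 regulators, and the 3 genes most like Actl6a and Actl6b are named. The replicate number is the library, so sums of 1 number come from the same cells' library: their deviations correlated at r = 0.1278 to 0.3525 over the 6 pairs of the 4 compared classes. Whole libraries held 40267872 and 49422007 UMIs. Binomial intervals and limits from 3 counts cover counting error only. The test was checked on counts simulated without deviations shared by the sums of a library. That check does not cover such sharing, and its outcome is not given here. Alternatives were cell filters, clustering, doublets, depth, normalisation, DESeq2 1.42.0, the gene filter, the samples fitted and each library left out.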

Additional observations from a re-analysis of the deposited data

How the results depend on the processing

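Over 770 log2 fold changes of members under other settings, 707 kept direction and side of the threshold, 25 lost and 18 gained a call and 20 changed direction. Of the other values, 80 of 240 levels, 39 of 96 shares of UMIs, 2 of 60 levels by phase and 39 of 40 shares of cells moved by more than the spread between the 2 libraries. With the library as a replicate block, 0 member calls changed, and 6997 genes against 6739 were called between RGC-like and excitatory neuron-like cells. Leaving out either library gives a value without a test, and 100 of 120 such values moved by less than the spread between replicates.

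Direction changed for Dpf3 between RGC-like and IPC-like cells with at most 5% mitochondrial UMIs (0.33), doublets kept (0.15), Leiden resolution 0.5 (2.10), scaling within libraries (1.90) and classes from other UMIs (0.0062). Actl6a in that comparison was -0.048 thinned and -0.042 with G1-like progenitors only. Between RGC-like and MGE interneuron-like cells, Dpf2 was 0.012 at resolution 0.5 and 0.13 with classes from other UMIs. Between MGE interneuron-like and excitatory neuron-like cells, Phf10 was -0.049 (at least 500 genes), -0.10 (doublets kept), -0.063 (resolution 0.5), -0.083 (scaled), -0.21 (classes from other UMIs), -0.13 (thinned) and -0.10 (all genes), Actl6b -0.0069 (doublets kept) and -0.14 and Ss18l1 -0.15 (classes from other UMIs). Smarca4 was 0.044 in the excitatory split with all genes. Apart from the 2 larger Dpf3 values none of these passed the test, and the cause was not tested.

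Counts of genes called moved by over 1.5 times, with 8415 genes tested in place of 12227 after thinning: 4455 (thinned) and 3659 (G1-like only) between RGC-like and excitatory neuron-like cells, 2534 (thinned) and 2768 (at least 500 genes) against 4159 between IPC-like and excitatory neuron-like cells, 2475 (thinned) and 1851 (G1-like only) against 4110 between RGC-like and IPC-like cells, and 3933 (thinned) against 6575 between RGC-like and MGE interneuron-like cells. Fitting the compared classes alone, the counts were 10177, 6436 and, for the excitatory split, 4997 against 3131. Members called fell to 2 between RGC-like and IPC-like cells with G1-like progenitors only and to 1 between MGE interneuron-like and excitatory neuron-like cells with doublets kept. In the latter setting, the count of all genes called stayed within 1.5 times of the 2405 in the main fit. The share of Actl6b in its pair in RGC-like cells was 0.451% (resolution 2), 1.15% (at least 500 genes), 2.67% (at most 5% mitochondrial UMIs) and 1.31% (doublets kept), and in excitatory neuron-like cells 64.8% (at least 500 genes), 67.6% (at most 5% mitochondrial UMIs), 66.3% (doublets kept) and 64.7% (scaled). The 6 and 7 UMIs of Actl6b in RGC-like cells limit its fold.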
